A study of Mus musculus with 8 samples.

Results

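Class I odorant receptors (ORs) of the chromosome 7 cluster were examined in neonatal mice that had lost the transcription factor Emx2 from mature olfactory sensory neurons (OSNs). The members were all receptor genes numbered Olfr543 to Olfr692 that had a transcript cluster of their own on the array, with pseudogenes left out. A transcript cluster is the set of probes that together give 1 value for a gene. The rule gave 108 genes of 19938 measured, and the cluster with the highest mean was used where a gene had more than 1. The gene table lists 117 protein-coding genes in this range, and 7 of these were measured only through clusters that also name another receptor. All 108 lie on chromosome 7, and 107 carry a class I family number (1 to 42) among their synonyms. Olfr652 is the exception, since its synonyms give a class II number only.

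At postnatal day 1, total RNA was taken from the olfactory mucosa of 8 mice and measured on Affymetrix Mouse Gene 1.0 ST arrays, 1 per mouse, as log2 signals. The study asked whether Emx2, a homeodomain protein of OSNs, is needed for normal OR expression. All mice were of mixed 129 x C57BL/6J background. The 4 knockouts were OmpCre:Emx2(fl/fl). Of the 4 littermate controls, mice 1 to 3 were labelled OmpCre:Emx2(fl/+), a genotype that keeps 1 functional Emx2 allele in recombined cells. Mouse 4 was labelled Emx2(fl/fl), without Cre. OmpCre is a targeted allele that places Cre at the Omp locus, so that recombination occurs in mature OSNs, does not reach all of them, and costs Cre carriers 1 Omp copy. Both sexes were used, and litters could not be assigned from the labels.

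Each mature OSN expresses 1 allele of 1 OR gene, and the tissue-level mRNA of an OR reflects how many neurons chose it and how much mRNA each of them holds. In whole mucosa, fewer cells of a type and less RNA per cell cannot be told apart. Class I ORs are the older of the vertebrate receptor classes, resembling those of fish, and in the mouse they form 1 large cluster. Most are expressed in the dorsal zone of the olfactory epithelium, and many detect acids and other hydrophilic odorants. The transcription factor Bcl11b is known to bias OSNs between the classes, and Lhx2, Emx2 and Ebf proteins are known to act at OR promoters and enhancers.

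The deleted gene was checked first. The Emx2 signal was 10.83, 10.74, 10.58 and 10.89 in controls 1 to 4 and 10.25, 10.14, 10.34 and 10.14 in knockouts 1 to 4. Every knockout was below every control, with a fold of 0.684 (limma adjusted p = 0.201), and the array does not separate recombined from other cells. The 8 arrays had medians of 8.64 to 8.68 and pairwise correlations of 0.985 to 0.996. Control 2 stood apart on the first principal component of all clusters, at 32.9 where the other mice lay between -11.8 and 6.11. Y-linked transcripts were high in controls 2, 3 and 4 and knockout 3, and low in control 1 and knockouts 1, 2 and 4, so sex, as far as these transcripts show it, was unevenly divided between the groups.

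Promoter sequence was compared because Emx2 and Lhx2 are homeodomain proteins, whose binding sites often hold a TAAT core. RefSeq promoter windows of mouse assembly GRCm38.p6 were available for 92 of the 108 members. The 250 bases before each start were searched on both strands for the letters TAATTA or TAATGA, and a window holding both was counted once. For 69 members the annotated start is the ATG of the coding sequence, so that the window may not reach the true promoter. The stretches below hold 1 match each and belong to members with a result described later: Olfr605 among the lower, Olfr607 among the higher, Olfr631 for its spread between mice, Olfr679 among the brightest, and Olfr574 and Olfr615, which the study names. The window of Olfr605 held 2 matches, and the one nearer the start is shown. Olfr552, among the lower, and Olfr669, among the brightest, also held a match and are not shown. Capitals mark the matched letters of each stretch. Each reads 5′ to 3′ on the strand of its gene.
Olfr605 (GRCm38.p6 chr7:103443255-103443284, minus strand): gaaccactgctcTAATTAaaactaggaaag
Olfr607 (GRCm38.p6 chr7:103464269-103464298, minus strand): atagaatgaaaaTAATTActtagcgaaaat
Olfr631 (GRCm38.p6 chr7:103914896-103914925, plus strand): agggatggggtgTAATGAaggactctgact
Olfr679 (GRCm38.p6 chr7:105085643-105085672, plus strand): agagccagaaccTAATTAtctaaatcctaa
Olfr574 (GRCm38.p6 chr7:102948242-102948271, plus strand): gatagctatatcTAATGAgagtagaggcaa
Olfr615 (GRCm38.p6 chr7:103560253-103560282, plus strand): catggagattagTAATGAaaaagattatct

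These letters occurred before 31 of 92 members (33.7%), before 325 of 848 other ORs (38.3%) and before 3441 of 27025 genes in the table (12.7%). Among members whose start is not an ATG, 8 of 23 windows held them (34.8%), against 103 of 232 among other ORs (44.4%). The Ebf-type letters CCCNNGGG, searched in the same way, occurred before 3 members (3.26%), 2.71% of other ORs and 11.7% of all genes. A match is a run of letters and not a measured binding site. The median knockout minus control difference was -0.01 log2 in the 31 members with the homeodomain letters and 0.01 in the 61 without, with 16 and 29 members lower. Among windows whose start is not an ATG it was -0.06 in the 8 members with the letters, 5 of them lower, and 0.01 in the 15 without, 7 of them lower. No such letters were found in the windows of Olfr606, Olfr597, Olfr550, Olfr568 or Olfr620, and Olfr672 and Olfr592 had no window.

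As a group the class I members averaged the same signal in knockouts and controls. The mean of the 108 members was 8.19, 8.40, 8.10 and 8.22 in controls 1 to 4 and 8.18, 8.08, 8.37 and 8.28 in knockouts 1 to 4. Controls averaged 8.23 ± 0.13 (SD, n = 4) and knockouts 8.23 ± 0.13 (SD, n = 4). The groups overlapped throughout: the highest mice were control 2 and knockout 3, and the lowest were knockout 2 and control 3. The mean difference over members was -0.00126 log2 and the median -0.00827, where the median over all clusters was 0.00235. This equality depended on single mice. The mean difference was 0.06 without control 2, with 40 members lower, and -0.05 without knockout 3, with 76 lower. The middle of the distribution was narrow, with quartiles of -0.07 and 0.05.

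Of the 108 members, 56 had a lower mean in the knockouts (51.9%) and 52 a higher one, against 48.6% lower among all 21789 clusters. With scaling of each array to the mature OSN markers described below, which moved the median of all clusters to 0.12, 13 members were lower and the members' mean was 0.11. The remaining comparisons are on the deposited scale. By limma 0 members passed an adjusted p of 0.05, as did 0 of all clusters (0%), and the smallest adjusted p of a member was 0.876. At an unadjusted p under 0.05, 2 members were lower (1.85%) and 1 was higher (0.926%), where the background over all clusters was 2.55% lower and 2.62% higher. The members' shares were thus no larger than the background. The methods' t-test gave 1 member at an unadjusted p under 0.05 (0.926%, against 4.96% of all clusters) and 0 after Benjamini-Hochberg adjustment.

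No member separated the groups completely. In 0 of 108 were all knockouts below all controls, and in 0 were all above, where these patterns occurred in 1.48% and 1.62% of all clusters. The difference was under 0.1 log2 in 75 members. The 95% interval of the difference lay within ±0.5 log2, a fold of 0.707 to 1.41, in 92 of 108 members. Its median half-width was 0.25 log2 and its widest, for Olfr568, was 0.60. With 4 arrays per group, differences smaller than the half-width could not be told from 0 even without adjustment. The intervals take no account of the number of clusters tested, so larger changes could also be missed. Emx2, at -0.55 log2, did not pass the adjusted threshold either (limma adjusted p = 0.201).

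**Figure D1:**
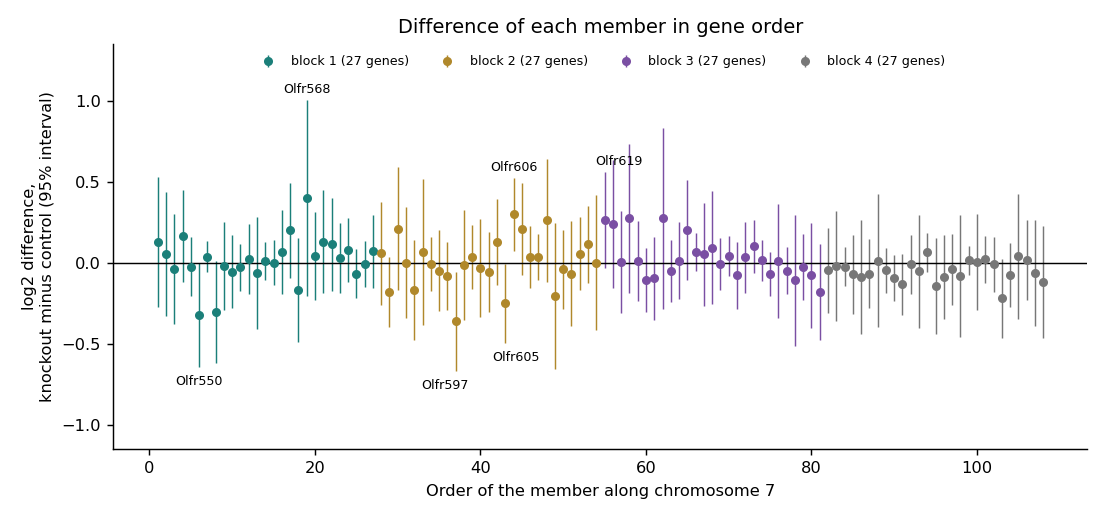
Log2 difference of knockout minus control for each of the 108 members (points) in their order along chromosome 7, with 95% intervals from limma, coloured by blocks of 27 genes. The intervals of 105 members span 0, and those of Olfr597, Olfr605 and Olfr606 do not.

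The brightest members are given as a description, since a signal also depends on a cluster's probes and gives no order of mRNA abundance between genes. The members had a median signal of 8.44, which is the percentile 36.8 of all clusters, and ranged from 4.96 for Olfr624 to 9.73 for Olfr672. Only 12 members lay above the all-cluster median of 9.17. The 10 brightest were Olfr672, Olfr620, Olfr571, Olfr543, Olfr592, Olfr578, Olfr622, Olfr550, Olfr679 and Olfr669, and they came from 9 different class I families.

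Olfr672, the brightest, had 9.76, 9.997, 9.61 and 9.84 in controls and 9.57, 9.34, 9.84 and 9.89 in knockouts. Knockouts 3 and 4 lay among the controls and knockouts 1 and 2 below them, and the difference of -0.14 ± 0.13 (SE) was -0.04 without knockout 2, -0.08 without control 2 and -0.22 without knockout 4. Olfr620 had 9.17, 9.95, 9.57 and 9.44 in controls and 9.60, 9.54, 10.07 and 9.88 in knockouts. Its difference was 0.24 ± 0.17 (SE), with control 1 the lowest mouse and knockout 3 the highest. It was 0.12 without control 1, 0.38 without control 2 and 0.14 without knockout 3.

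Olfr550 had the lowest limma p of the bright members. Its signal was 9.505, 9.78, 9.23 and 9.87 in controls and 9.24, 9.26, 9.49 and 9.12 in knockouts, a difference of -0.32 ± 0.14 (SE). Control 3 lay among the knockouts, and the adjusted p was 0.910. Without control 3 the difference was -0.45, and without control 4 it was -0.23. In the other 7 bright members the differences ran from -0.01 to 0.13. The 2 highest of these rested on single mice, since Olfr543 (0.13) was at -0.02 without control 1 and Olfr571 (0.11) at 4.5e-05 without knockout 3. Olfr592 and Olfr669 had knockouts within a narrow range. Olfr592 had 9.64, 9.47, 9.30 and 9.57 in controls and 9.49, 9.52, 9.48 and 9.45 in knockouts (-0.01 ± 0.07, SE).

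Olfr597, a family 23 receptor, showed the lowest p among members lower in knockouts. It had 8.48, 8.09, 7.91 and 8.21 in controls and 7.68, 7.61, 8.02 and 7.93 in knockouts, a fold of 0.778 (-0.36 ± 0.13 SE, adjusted p = 0.910). Knockouts 3 and 4 overlapped control 3, which was the lowest control. The difference was -0.26 without control 1. Among mice with high Y-linked signal it was -0.05 and among those with low signal -0.74, with 1 mouse in a group in each case.

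Olfr605, of family 24, had 8.51, 8.54, 8.63 and 8.92 in controls and 8.25, 8.30, 8.59 and 8.47 in knockouts. All but knockout 3 lay below every control, and the difference was -0.25 ± 0.11 (SE, adjusted p = 0.910). It was -0.16 without control 4, the highest mouse, and -0.11 with Y-linked signal as a covariate. Olfr552 had 8.01, 7.90, 7.60 and 7.78 in controls and 7.38, 7.32, 7.91 and 7.47 in knockouts, with knockout 3 the only knockout inside the control range. Its difference of -0.30 ± 0.14 (SE) was -0.43 without knockout 3. It was 0.15 among mice with high Y-linked signal and -0.62 among those with low signal. Olfr685 and Olfr582 differed by -0.22 ± 0.11 and -0.18 ± 0.09 (SE), and in both knockout 3 was the highest knockout. Olfr685 was at -0.15 without knockout 2.

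Olfr606, of family 17, was the member with the lowest p in either direction. Its signal was 8.32, 8.55, 8.05 and 8.24 in controls and 8.65, 8.47, 8.61 and 8.62 in knockouts, a fold of 1.23 (0.30 ± 0.10 SE, adjusted p = 0.876). Knockouts 1, 3 and 4 exceeded every control and knockout 2 lay below control 2 only. The difference stayed between 0.22 and 0.38 when each mouse was left out in turn. The value was 0.33 among mice with high Y-linked signal and 0.26 among those with low signal.

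The other members among the highest differences shared a low value in control 1. Olfr619, of family 31, had 7.77, 8.31, 7.85 and 7.96 in controls and 8.02, 8.16, 8.39 and 8.40 in knockouts (0.27 ± 0.13, SE). Olfr607 and Olfr610 differed by 0.21 ± 0.12 and 0.26 ± 0.17 (SE), and Olfr564, with a mean of only 6.16, by 0.20 ± 0.13 (SE). In all 4, control 1 was the lowest of the 8 mice, and control 2 lay within or above the knockout range. Without control 1 the differences were 0.20 for Olfr619, 0.13 for Olfr607, 0.15 for Olfr610 and 0.12 for Olfr564. Without control 2 they were 0.38, 0.30, 0.42 and 0.32 in this order.

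Olfr568 had the widest spread of any member. Its signal was 7.86, 9.23, 8.74 and 8.27 in controls and 8.85, 8.67, 9.19 and 8.98 in knockouts. The control SD of 0.59 was more than the difference of 0.40 ± 0.27 (SE). Without control 1 the difference was 0.18, and without control 2 it was 0.63. Olfr631 varied in the same direction, at 5.30, 6.52, 5.83 and 5.63 in controls and 5.78, 5.98, 6.25 and 6.37 in knockouts, with controls 1 and 2 at the extremes, and its difference of 0.27 was 0.10 without control 1 and 0.51 without control 2. Olfr611 ran the other way, with controls 1 and 4 highest (8.35, 7.91, 7.61 and 8.57 in controls and 7.85, 7.68, 7.98 and 8.11 in knockouts), and its difference of -0.21 was -0.05 without control 4.

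**Figure D2:**
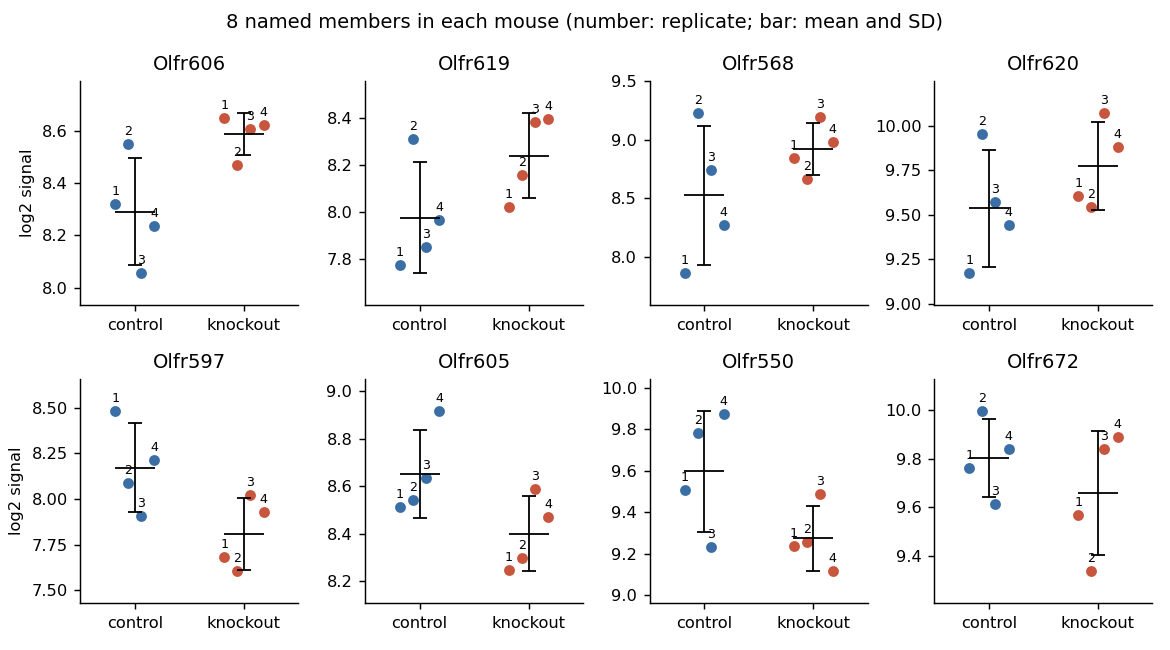
Log2 signal of 8 members in each mouse (points, numbered by replicate), with group mean and SD as bars. Olfr606, Olfr619, Olfr568 and Olfr620 had higher knockout means and Olfr597, Olfr605, Olfr550 and Olfr672 lower ones, and the groups overlap in every panel. Each panel has its own log2 range.

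The 3 members that the study names were close to 0. The paper gives results of Olfr574 and Olfr615 for its Lhx2 deletions and lists Olfr545 as an in situ hybridization probe. It lists none of them among the ORs affected by conditional Emx2 deletion. Olfr545, known to respond to dicarboxylic acids, had 8.86, 9.40, 9.02 and 8.97 in controls and 9.06, 8.69, 9.32 and 9.04 in knockouts (-0.04 ± 0.15, SE). Olfr574 had 6.85, 6.50, 6.83 and 6.77 in controls and 6.77, 6.94, 6.69 and 6.85 in knockouts (0.08 ± 0.09, SE). Olfr615, an OR of the dorsal epithelium, had 8.17, 8.09, 7.89 and 8.08 in controls and 7.85, 7.61, 8.23 and 8.24 in knockouts (-0.07 ± 0.14, SE). In Olfr615 the knockouts formed a lower and a higher pair around the controls. The 95% intervals were -0.38 to 0.30, -0.12 to 0.28 and -0.39 to 0.26 in this order. A further pair of members with known ligands was chosen after their values were seen. Olfr544, a receptor of azelaic acid, differed by 0.05 ± 0.17 (SE). Olfr558, a receptor of short-chain fatty acids that is also expressed outside the nose, differed by 0.01 ± 0.05 (SE).

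Some members were nearly constant and others varied mainly among the knockouts, and the following were chosen after their values were seen. Olfr678, of family 32, had 8.75, 8.79, 8.75 and 8.78 in controls and 8.76, 8.79, 8.83 and 8.75 in knockouts. Its 95% interval of -0.07 to 0.10 was among the narrowest of the members, and Olfr551 (-0.06 to 0.13) and Olfr638 (-0.05 to 0.18) were measured about as closely. Olfr618, of family 31, had 8.23, 8.09, 8.09 and 8.29 in controls and 8.11, 7.68, 8.69 and 8.22 in knockouts. Its knockout SD of 0.42 was the largest of any member, with knockouts 2 and 3 at the extremes and a 95% interval of -0.41 to 0.42 for the difference. Olfr598 had the same order at a lower signal, with 5.88, 5.64, 6.41 and 6.18 in knockouts around controls of 5.98 to 6.15. Olfr623, the only family 1 member, had 8.61, 9.35, 9.02 and 8.44 in controls and 9.06, 8.84, 9.42 and 9.19 in knockouts, and controls 1 and 4 were its lowest mice.

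Members of 1 mouse tended to deviate together. Relative to each member's own mean over the 8 mice, 95 of 108 members were above it in control 2 and 89 in knockout 3, but 16 in control 3 and 21 in knockout 2. The other mice lay between, at 46 in control 1, 55 in control 4, 37 in knockout 1 and 71 in knockout 4. Control 2 was the highest mouse for 46 members and knockout 3 for 28. Knockout 2 was the lowest for 35 and control 3 for 31. The mice at both ends thus included 1 control and 1 knockout each.

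**Figure D3:**
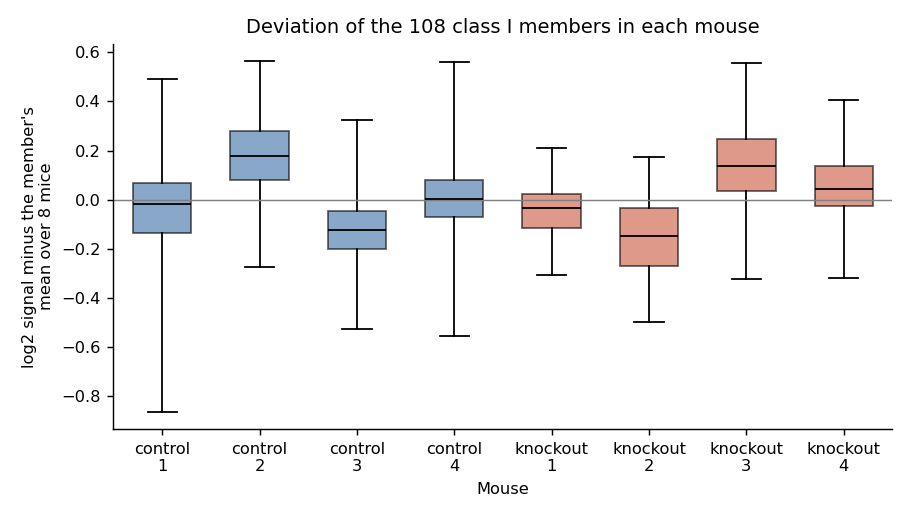
Log2 signal of the 108 members minus each member's mean over 8 mice, by mouse. Lines in boxes are medians, boxes are quartiles and whiskers reach the lowest and highest member. The medians run from -0.15 in knockout 2 to 0.18 in control 2, and both groups hold mice above and below 0.

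The first principal component of the members carried 52.2% of their variance and put control 2 (2.12) and knockout 3 (1.98) at one end and knockout 2 (-1.89) and control 3 (-1.48) at the other. The second component, with 24.4%, set controls 1 (1.81) and 4 (1.37) against the remaining mice (-0.89 to -0.03). Its largest loadings were those of Olfr568 (-0.35), Olfr611 (0.28), Olfr631 (-0.26) and Olfr597 (0.25). The order of the mice was also looked at. In 10 members controls 1 and 4 were both below the other 6 mice, namely Olfr544, Olfr547, Olfr564, Olfr568, Olfr577, Olfr603, Olfr610, Olfr620, Olfr623 and Olfr631. In 7 they were both above, namely Olfr572, Olfr592, Olfr594, Olfr597, Olfr611, Olfr658 and Olfr686. Order and loading matched only in part, since Olfr552 (0.18) and Olfr550 (0.17) lacked this order and Olfr658 (0.04), which had it, loaded weakly. These mice are the pair that the second component of the same members set apart. The counts of 10 and 7 are therefore not independent of that component and are a description only. The share of all clusters with these orders was not counted. By the labels control 1 is Cre-positive and control 4 Cre-negative, and their Y-linked signal was low and high, so they shared neither feature. Omp, of which Cre carriers have 1 copy, was highest in these mice, at 13.43 in control 1 and 13.29 in control 4. It lay between 12.56 and 12.91 in the other 6 mice. Whether the Cre label of control 1 is right was not tested.

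Position along the cluster was described in 4 blocks of 27 members. From Olfr543 to Olfr577, 12 members were lower, from Olfr578 to Olfr618 13 were, and from Olfr619 to Olfr655 11 were. In the last block, Olfr656 to Olfr692, 20 of 27 were lower, with a median of -0.05 and a range of -0.22 to 0.06. None of its 27 members reached an unadjusted p under 0.05. The mean of this block was 8.28, 8.47, 8.16 and 8.31 in controls and 8.23, 8.09, 8.40 and 8.30 in knockouts, so the shift was smaller than the SD of 0.13 in either group. It was 0.0054 without control 2 and 0.0039 without knockout 2. Neighbouring members had the same sign in 62 of 107 adjacent pairs.

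Receptor families group ORs by sequence, and of 40 families 12 had at least 3 members. In 10 of these 12 the mean shift was smaller than the SD between mice in both groups, and the exceptions were families 14 and 23. Family 14 had 5 of 6 members higher with a median of 0.14 (Olfr561, Olfr564, Olfr568, Olfr574 and Olfr585), and Olfr566 was at -0.17. Its mean was 7.18, 7.59, 7.30 and 7.33 in controls and 7.42, 7.35, 7.60 and 7.57 in knockouts, with control 2 among the highest. The shift of 0.13 lay between the control SD of 0.17 and the knockout SD of 0.12, and it was 0.07 without control 1 and 0.21 without control 2. Family 23, which holds Olfr597, Olfr598 and Olfr599, had 7.60, 7.53, 7.39 and 7.54 in controls and 7.29, 7.14, 7.67 and 7.50 in knockouts. Its shift of -0.11 lay between the control SD of 0.09 and the knockout SD of 0.23, and was -0.03 without knockout 2. These members differed by -0.36, -0.01 and 0.03 in this order. Family 34 had 6 of 7 members lower (median -0.05), and family 32 had 8 of 11 lower (median -0.05). In family 31, 6 of 10 were higher, and in family 42, Olfr543, Olfr544 and Olfr545 differed by 0.13, 0.05 and -0.04. No member of families 14, 31, 32, 34 or 42 reached an unadjusted p under 0.05.

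Class II ORs gave a different picture. Of 889 class II genes 657 were lower (73.9%), with a mean of -0.11 log2, and 113 were lower and 3 higher at an unadjusted p under 0.05. That mean was -0.07 without knockout 4 and -0.08 without control 4. It was 0.08 among mice with high Y-linked signal and -0.25 among those with low signal, and 60.4% of class II genes were lower with that signal as a covariate. On chromosome 7, 51 class II genes numbered Olfr466 to Olfr542 precede the class I cluster in number, and 38 of them were lower (74.5%). Of these 51, 8 were lower at an unadjusted p under 0.05 (15.7%) and 0 were higher. Their mean difference was -0.11, and it was -0.07 without control 4 or without knockout 4. The members differed from these by 0.11 log2 against all class II genes and by 0.11 against the 51. This gap did not separate the mice. Members minus class II was 0.02, 0.38, 0.15 and 0.02 in controls and 0.28, 0.08, 0.23 and 0.44 in knockouts, or 0.14 ± 0.17 and 0.26 ± 0.15 (SD, n = 4), and no test was run on it. Leaving out each mouse in turn gave a gap of 0.05 (without knockout 4) to 0.19 (without control 2). The 11 class I genes outside the rule were 8 higher and 3 lower, with a mean of 0.03.

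**Figure D4:**
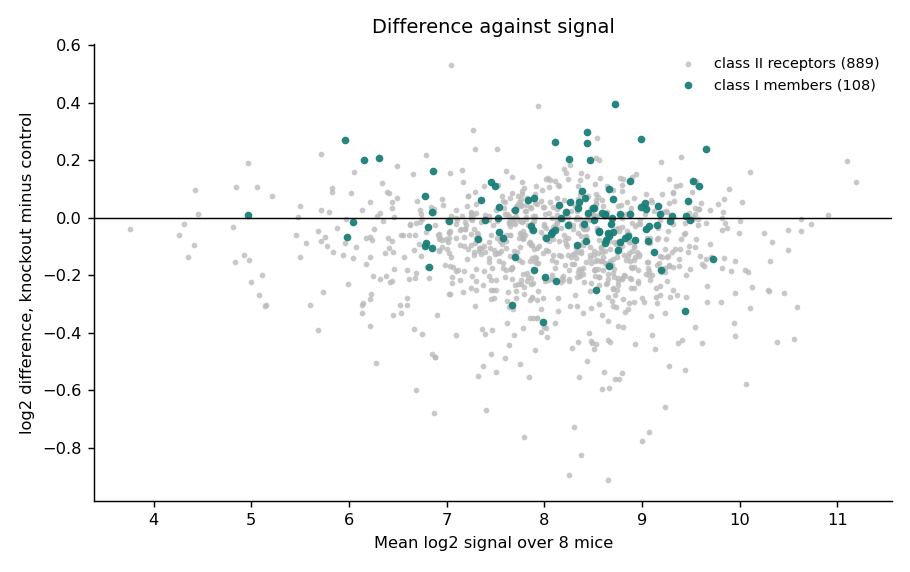
Each point is a receptor gene, 108 class I members and 889 class II genes, placed by its mean log2 signal over 8 mice and by its log2 difference (knockout minus control). The members lie between -0.36 and 0.40 around 0 at all signals, where 73.9% of class II genes lie below 0. After scaling to the mature OSN markers, 13 of 108 members and 45.7% of class II genes were lower.

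Cell markers were set beside the members in the same mice. The 19 mature OSN markers averaged 11.92, 11.71, 11.58 and 11.85 in controls and 11.55, 11.63, 11.80 and 11.63 in knockouts, a mean difference of -0.12 with 14 lower. The median was -0.04, and S100a5 (-0.58), Cidea (-0.43), Kirrel2 (-0.33) and Omp (-0.27) were lowest. By limma 4 markers were lower at an unadjusted p under 0.05 (21.1%) and 0 higher, against 2.55% and 2.62% of all clusters. None passed the adjustment. In S100a5 and Cidea all knockouts were below all controls, a pattern found in 1.48% of all clusters. Omp had 13.43, 12.72, 12.56 and 13.29 in controls and 12.76, 12.67, 12.91 and 12.60 in knockouts. Cre carriers have 1 copy of Omp, and by the labels controls 1 to 3 are carriers as the knockouts are. Control 4, labelled without Cre, has both copies, so Omp copy number was not balanced between the groups. Omp is among the 19 markers used for scaling, and its part in that scaling was not tested. Members minus the 19 mature OSN markers was -3.54 ± 0.18 in controls and -3.42 ± 0.09 in knockouts (SD, n = 4). Without control 1 the markers' difference was -0.06 and the gap of 0.11 was 0.05. Without control 3 they were -0.18 and 0.13, and without control 2 the gap was 0.19. Of the dorsal zone markers, where most class I ORs are expressed, Nqo1 was at -0.18 ± 0.16, Acsm4 at 0.07 ± 0.12 and Robo2 at 0.12 ± 0.05 (SE). Robo2 was higher in every knockout than in every control (limma unadjusted p = 0.0488, adjusted p = 0.910). The mean of the 3 markers was 12.08, 12.03, 11.86 and 12.10 in controls and 11.90, 11.85, 12.20 and 12.13 in knockouts. It was low in control 3 and knockout 2 and high in knockout 3, as the members were, but not high in control 2. The 5 ventral zone markers were all higher (mean 0.07), with 0 at an unadjusted p under 0.05.

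**Figure D5:**
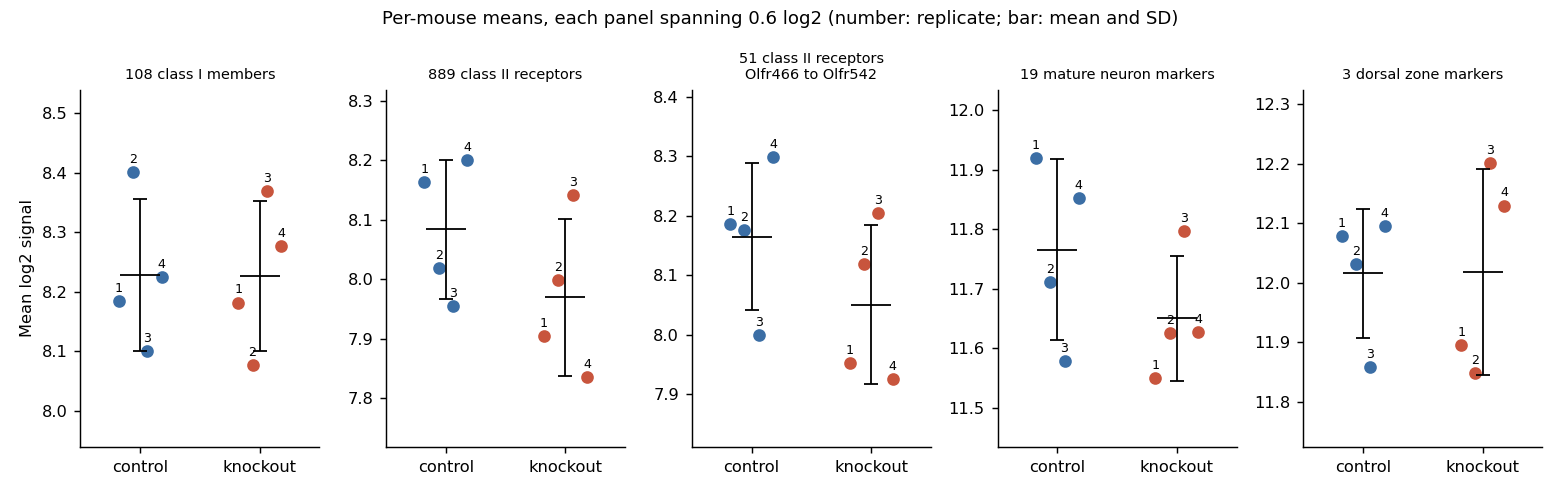
Mean log2 signal in each mouse (points, numbered by replicate) for the members, class II ORs, nearby class II ORs, mature OSN markers and dorsal zone markers, with group mean and SD. Every panel spans 0.6 log2. The members average 8.23 in both groups, and the groups overlap in all panels.

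Other lists had larger mean differences than the members. All 8 markers of globose basal and dividing cells were higher in knockouts (mean 0.22, control means per mouse from 10.37 to 10.92 and knockout means from 10.87 to 11.06), and all 7 cartilage and bone genes were higher (mean 0.24, from 9.45 to 10.12 and from 9.78 to 10.19). Bowman gland markers were lower in 7 of 8 genes (mean -0.25, from 11.07 to 12.36 and from 10.88 to 11.48). These means rested partly on single mice. The Bowman gland mean was 0.04 without control 1, -0.13 without knockout 3, -0.38 without control 3 and -0.39 without control 4, the globose basal mean was 0.10 without control 2, and the cartilage and bone mean was 0.14 without control 2. Control 2 also had an immune marker mean of 10.01, where the other mice lay between 9.09 and 9.33. The part of these lists in the class I values was not tested. Among mice with high Y-linked signal the members' mean difference was 0.13 and among those with low signal -0.01, with 1 knockout in the first set and 1 control in the second. With Y-linked signal as a covariate 37 members were lower and 9 had an unadjusted p under 0.05 (8.33%, all higher), where 3.18% of all clusters did under the same fit.

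Factors of OR choice were the remaining list. Of 20 genes 14 were lower and 6 higher. At an unadjusted p under 0.05 by limma 4 were lower (Emx2, Ddit3, Rtp2 and Atf5) and 1 was higher (Cbx5). These are 20% and 5% of the list, against 2.55% and 2.62% of all clusters. Emx2 is itself the deleted gene, and Rtp2 is also among the mature OSN markers. Ddit3, a transcription factor of the unfolded protein response, had 10.04, 10.19, 9.94 and 10.19 in controls and 9.89, 9.80, 9.89 and 9.92 in knockouts, a fold of 0.863 (limma adjusted p = 0.823). All knockouts were below all controls. Rtp2, a chaperone that carries ORs to the cell surface, had 11.09, 10.99, 10.87 and 11.22 in controls and 10.60, 10.81, 10.95 and 10.78 in knockouts (-0.26 ± 0.09, SE, adjusted p = 0.910). Bcl11b differed by -0.02 ± 0.08 and Lhx2 by 0.05 ± 0.08 (SE), each less than the spread between mice. Of this list 0 genes passed the adjustment over all clusters.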

How the data were processed

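The authors hybridised total RNA from P1 olfactory mucosa of 8 mice to Affymetrix Mouse Gene 1.0 ST arrays and deposited log2 signals per transcript cluster, made with Affymetrix Expression Console per the labels. The sources used here do not name the summarisation algorithm, and the values already were normalized between arrays. Of 35557 clusters, 21789 with 1 gene symbol in the platform annotation were tested, 1621 carried several symbols and 12147 were unnamed. OR families and gene order came from the RefSeq gene table of GRCm38.p6, in which 21698 tested clusters were found. The array values come with no build, so coordinates are given only for RefSeq sequence.

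Knockouts were compared with littermate controls by limma 3.58.1 (R 4.3.3; lmFit and eBayes on all 21789 clusters, no covariate) with Benjamini-Hochberg adjustment. SE and 95% intervals come from this fit. Replicate numbers follow accession order and pair no samples. P-values measure the spread between mice, and 4 arrays per group limit the precision. The methods' t-test was run on the same values. Lists of markers were represented by the brightest cluster per gene. Members named in the text were the 10 brightest, the 6 of smallest p in each direction, those whose groups did not overlap (0), the 3 of largest control SD and 3 named by the study, with Emx2 and the 3 choice factors of smallest p. A criterion on protein identity between members was not run. Other members are named as examples of a family or position or, where stated, after their values were seen. Members and lists were chosen with earlier results of these data known. The test was tried on simulated data before use. Alternatives were quantile normalization, scaling each array to the mature OSN markers, array weights, an intensity trend, clusters above the median signal, all rows tested, another cluster for Olfr617, members with a class I family only, Y-linked signal as a covariate, and each mouse left out, which for marker lists and families was added after seeing the data. Figures used matplotlib 3.10.9, and sequence was read with Python 3.11.15.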

Additional observations from a re-analysis of the deposited data

Results flagged for a closer look

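In the 66 groups of 4 mice examined for named genes and list means, 1 mouse stood far from the other 3 in 2 cases. Chance alone flags about 1 in 20 such groups. Olfr571 was at 9.75 in control 4, where the other controls lay between 9.44 and 9.49. Olfr679 was at 9.63 in control 2, where the others lay between 9.19 and 9.21.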

How the results depend on the processing

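In the full fit and every alternative, 0 members passed the adjusted threshold. Members lower and higher at an unadjusted p under 0.05 numbered 2 and 1. They numbered 1 and 3 with scaling to the mature OSN markers, 4 and 2 with array weights, 1 and 0 among the 12 members above the median signal, 0 lower by the methods' t-test, 0 and 9 with Y-linked signal as a covariate, and 1 lower with all rows tested. Both directions together made 3.70% of members against 5.76% of all clusters with scaling and 5.56% against 6.95% with array weights. Above the median signal they made 8.33% against 6.38%. By the t-test they made 0.926% against 4.96%, with the covariate 8.33% against 3.18%, and with all rows tested 1.85% against 4.37%. The share of members lower was 51.9%, but 12.04% with that scaling, 41.7% above the median signal and 34.3% with the covariate. Leaving out 1 mouse gave 0 to 6 lower and 1 to 13 higher members (13 without control 2, 6 lower without control 3 or knockout 3). In either direction 13.9% of members were at this p without control 2, where 4.53% of all clusters were, 6.48% against 6.24% without control 3 and 7.41% against 7.05% without knockout 3. Leaving out each mouse also gave shares of 32.4% (without knockout 2) to 70.4% (without knockout 3), and mean differences of -0.05 to 0.06. The sign of the members' mean was thus changed with single mice. Among named members 9 of 26 changed sign in at least 1 alternative, the largest being Olfr543 (0.13). Quantile normalization gave -0.00477 for Olfr622 and -0.00719 for Olfr679. Scaling gave 0.106 for Olfr592, 0.105 for Olfr669, 0.0777 for Olfr545 and 0.0461 for Olfr615. Array weights gave 0.00619 for Olfr669. The covariate gave 0.0162 for Olfr669, 0.165 for Olfr545, -0.0167 for Olfr574 and 0.0216 for Olfr615. Over the mice left out, Olfr543 ran from -0.0167 to 0.245, Olfr592 from -0.0752 to 0.0410, Olfr622 from -0.0751 to 0.109, Olfr679 from -0.0493 to 0.113, Olfr669 from -0.0608 to 0.0703, Olfr545 from -0.134 to 0.0747, Olfr574 from -0.00115 to 0.118, Olfr578 from -0.0596 to 0.150 and Olfr615 from -0.155 to 0.0561. The causes were not tested, except that leaving out mice and the median filter reduce the samples or members. No paired analysis was possible because the labels give no replicate numbers.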

Other observations

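Clusters that name a gene of the range Olfr543 to Olfr692 together with another receptor were left out of the members, and 10 of these were on the array. The cluster shared by Olfr620 and Olfr624 had 8.67, 9.45, 8.98 and 8.88 in controls and 9.20, 9.11, 9.48 and 9.43 in knockouts, a difference of 0.31. Its groups overlapped through control 2, and control 1 was again the lowest mouse. Olfr620 alone differed by 0.24 and Olfr624 alone by 0.01, the latter at the lowest signal of any member. The cluster of Olfr560 and Olfr78, the latter a receptor of acetate and propionate that is also expressed outside the nose, was at -0.16, and that of Olfr596 and Olfr603 at 0.14. Olfr617 was the only member with more than 1 cluster of its own, which differed by 0.11 and -0.03.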
